A study of Mus musculus with 46 samples.

Results

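C/EBPα peaks that were present in every C/EBPα library and that no Hnf4α peak touched were examined in mouse liver. Overlapping peaks of the 4 deposited C/EBPα lists were merged into 97466 loci, of which 13813 held a peak in all 4 lists and are called shared loci. Of these, 3016 (21.8%) overlapped no peak of any of the 4 Hnf4α lists by 1 bp or more and are the C/EBPα loci without Hnf4α. They were thus chosen by the presence of C/EBPα peaks and the absence of Hnf4α peaks in these libraries. The other 10797 overlapped at least 1 Hnf4α peak and are called co-bound loci. The livers came from male C57BL/6 mice that were bought at 5 weeks of age and fed for up to 20 weeks either a lipid-rich diet (LD, 60% of calories from lipid, high fat in the labels) or a carbohydrate-rich diet (CD, 70% of calories from carbohydrate, low fat in the labels). All mice were of the same strain and sex, glucose and insulin tolerance tests were part of the study, and it held no group on ordinary chow, so that each value of 1 diet is relative to the other. ChIP-seq was done on 2 livers per diet for C/EBPα, 2 per diet for Hnf4α and 3 per diet for H3K27ac, RNA-seq on 5 per diet, and promoter capture Hi-C (PCHi-C), which enriches contacts that involve gene promoters, on 2 per diet pooled into 1 interaction list each.

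C/EBPα is a basic leucine zipper transcription factor that binds as a dimer to a short palindrome and is needed in hepatocytes for glucose, amino acid and lipid metabolism. Hnf4α is a nuclear receptor that binds as a homodimer to a pair of directly repeated half-sites, and both factors are abundant in hepatocytes, where they occupy many of the same promoters and enhancers. Acetylation of histone H3 at lysine 27 (H3K27ac) marks active promoters and enhancers.

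The C/EBPα lists held 38281 to 46371 peaks and the Hnf4α lists 35143 to 47992, and in each kind of list the ratio of height to tag count gave the same total in every library. The width that HOMER gave to all peaks of a C/EBPα library was 236 and 250 bp on LD and 314 and 286 bp on CD, so that peak width went with diet. The RNA-seq libraries held between 31707963 and 39012699 counted read pairs. Albumin (Alb), the defining product of hepatocytes, was at 61560 TPM ± 4238 (SD, n = 5) on LD and 61190 ± 4282 (SD, n = 5) on CD.

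The sequences below are windows within 7 of the 10 highest of these loci, printed for the C/EBP string in capitals, the short sequence to which C/EBP factors bind. They are not all of the 10 that hold the string. The C/EBP string searched was TTGCNNAA, where N is any base, on either strand. Each run is the plus strand of mm9, 5′ to 3′, with the string nearest to the locus centre in capitals, and it is cut to 30 bases where an annotated exon came within the longer window.
Prmt3, chr7:57033658-57033687, at the start site of a protein arginine methyltransferase gene: cggcgcctcggTTGCGCAAgcgtccaagcc
Pcf11, chr7:99818498-99818597, upstream of the start site of a transcription termination factor gene: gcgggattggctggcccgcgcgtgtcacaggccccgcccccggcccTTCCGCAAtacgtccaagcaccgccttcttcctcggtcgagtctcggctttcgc
G530011O06Rik, chrX:166417129-166417228, upstream of the start site of a gene known by this clone name: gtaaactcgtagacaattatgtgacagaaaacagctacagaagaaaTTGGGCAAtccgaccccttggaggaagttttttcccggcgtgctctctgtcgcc
Trib1, chr15:59484498-59484527, within an exon of a pseudokinase gene: taacccgagggTTAAGCAAtggcaggctga
Wdr5, chr2:27448951-27449050, intergenic and 78.3 kb from the start site of a histone methyltransferase subunit gene: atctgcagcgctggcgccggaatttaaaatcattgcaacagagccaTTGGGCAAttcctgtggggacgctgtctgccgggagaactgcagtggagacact
Rcn1, chr2:105268403-105268502, intergenic and upstream of an endoplasmic reticulum calcium-binding protein gene: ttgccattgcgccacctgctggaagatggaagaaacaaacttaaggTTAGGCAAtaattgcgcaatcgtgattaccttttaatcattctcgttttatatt
Rn45s, chr17:39984735-39984834, within the ribosomal RNA precursor gene: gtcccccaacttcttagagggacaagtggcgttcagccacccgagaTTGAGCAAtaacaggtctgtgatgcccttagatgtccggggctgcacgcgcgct

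The highest of the 3016 loci lay within Rn45s, the ribosomal RNA precursor gene, at chr17:39984663-39984978. Its height was 835.5 and 1016 in the LD libraries and 1256 and 1167 in the CD libraries, and it overlapped no H3K27ac peak in any of 6 libraries. Ribosomal RNA genes are repeated in the genome, and their copies cannot be told apart here. The next locus in order, 260 bp upstream of the start site of Rad23b, was at 186.5 and 176 on LD and at 255.5 and 169 on CD. Heights are the normalised tag counts that HOMER gave, which came to 0.5 for each tag in all C/EBPα libraries.

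Of the 10 highest loci, those at Rad23b, Prmt3, Pcf11 and Mocos, a molybdenum cofactor sulfurase gene, lay within 1 kb of a start site and under H3K27ac peaks in all 6 libraries. The Prmt3 locus, centred 58 bp upstream of the start site with the nearest Hnf4α peak 17975 bp away, was at 140.5 and 128 on LD and at 215.5 and 175.5 on CD. The Rcn1 locus, 28950 bp from the start site, was at 151.5 and 152.5 on LD and at 177 and 130 on CD and held no H3K27ac peak. The locus 36272 bp from Gm38671 was also without H3K27ac, and its nearest gene was at 0 TPM in 9 of 10 mice. The Mocos and Pcf11 loci lay 17 and 37 bp from an Hnf4α peak and so just inside the rule. The nearest genes of the 10 loci ranged from Gm38671 to Rad23b, at 105 to 129 TPM over the 10 mice, and Rn45s, at 857 to 3180 TPM. Of these genes, Rcn1 and G530011O06Rik were called higher on LD.

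C/EBPα peaks were lower at the loci without Hnf4α than at the co-bound loci in each of the 4 libraries. The rule used the C/EBPα peaks of these same libraries, so the heights are given as a description. Without Hnf4α the LD libraries had median heights of 18 and 19.5 and the CD libraries 28.5 and 20. At the co-bound loci these medians were 26 and 28 for LD and 40.5 and 26.5 for CD. The ratio of the medians lay between 0.692 and 0.755. The distributions overlapped widely, since the upper quartile without Hnf4α, 27 in the first LD library, was above the co-bound median of that library. Loci without Hnf4α made up 34.5% of the lowest quartile of shared loci by geometric mean height, 25.02% and 17.98% of the next quartiles and 9.79% of the highest.

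**Figure D1:**
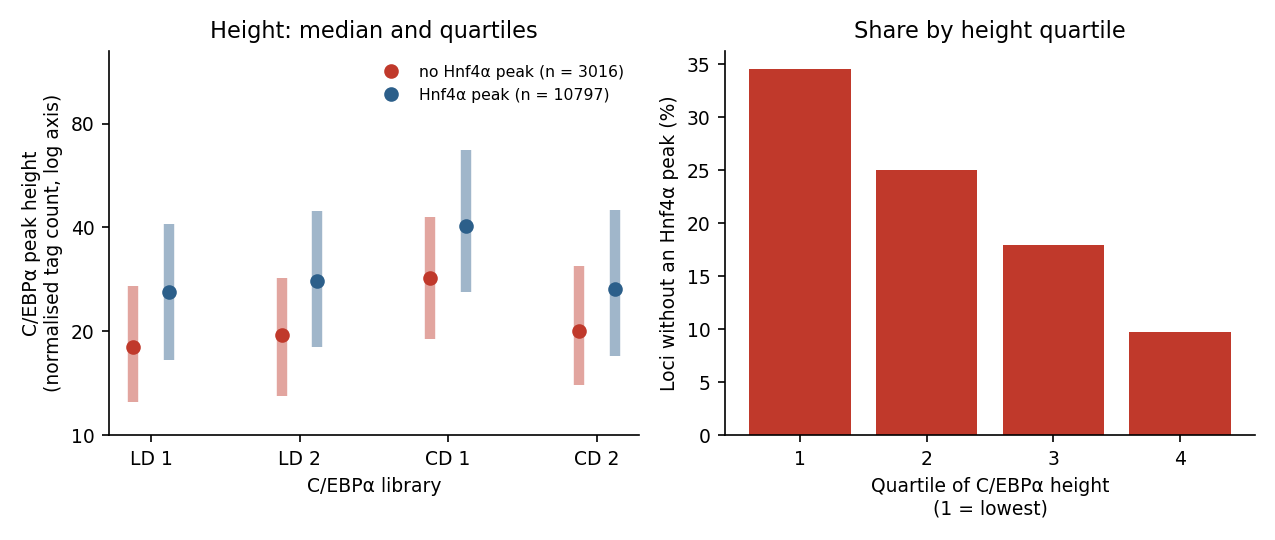
Left, C/EBPα peak height (HOMER's normalised tag count, log axis) in each of the 4 C/EBPα libraries for shared loci without an Hnf4α peak (red) and with one (blue); points are medians and bars span the lower to the upper quartile. Right, percent of shared loci without an Hnf4α peak in each quartile of C/EBPα height, which fell from 34.5% in the lowest to 9.79% in the highest.

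The edge of the rule was examined at loci just inside and just outside it. The 237 loci with an Hnf4α peak 1 to 100 bp away had a median geometric mean height of 24.7, and the 160 co-bound loci that overlapped an Hnf4α peak by at most 50 bp had a median of 24.6. These 2 sets were also alike in their mean share under H3K27ac peaks, 93.8% and 95.3%, and in their median distance to a transcription start site (TSS), 7.42 and 6.60 kb. The median gap to the nearest Hnf4α peak was 2101.5 bp (lower and upper quartiles 549 and 7428.5 bp). Of the 3016 loci, 1955 had no Hnf4α peak within 1 kb and 616 had none within 10 kb.

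Loci without Hnf4α lay nearer to promoters. The median distance from the locus centre to the nearest TSS was 11.5 kb (95% interval of the median 10.4 to 12.7 kb, for counting error), against 19.8 kb (19.0 to 20.6 kb) at the co-bound loci. A TSS was within 1 kb at 658 of the 3016 loci (21.8%, 95% Wilson interval 20.4% to 23.3%), against 1264 of 10797 co-bound loci (11.7%, 11.1% to 12.3%). The nearest TSS was more than 50 kb away at 19.9% and 27.5%. The share within 1 kb was 16.8% in the lowest quartile of height and 31.95% in the highest at the loci without Hnf4α, and 12.5% and 11.1% in the same quartiles of the co-bound loci. These are positions on the genome and do not vary over samples, so no test was made.

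By the GENCODE annotation of the same assembly, the centre lay in an exon at 10.6% of the loci without Hnf4α, in an intron at 48.0% and between genes at 41.4%, against 7.26%, 48.3% and 44.5% of the co-bound loci. Sequence was read at 3014 and 10791 loci. In the 1000 bp around the centre, 13.9% of the loci without Hnf4α and 6.87% of the co-bound loci were rich in CpG (GC content over 50% and an observed to expected CpG ratio over 0.6). Among loci within 1 kb of a TSS these shares were 57.2% and 50.3%, and beyond 1 kb 1.87% and 1.11%.

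**Figure D2:**
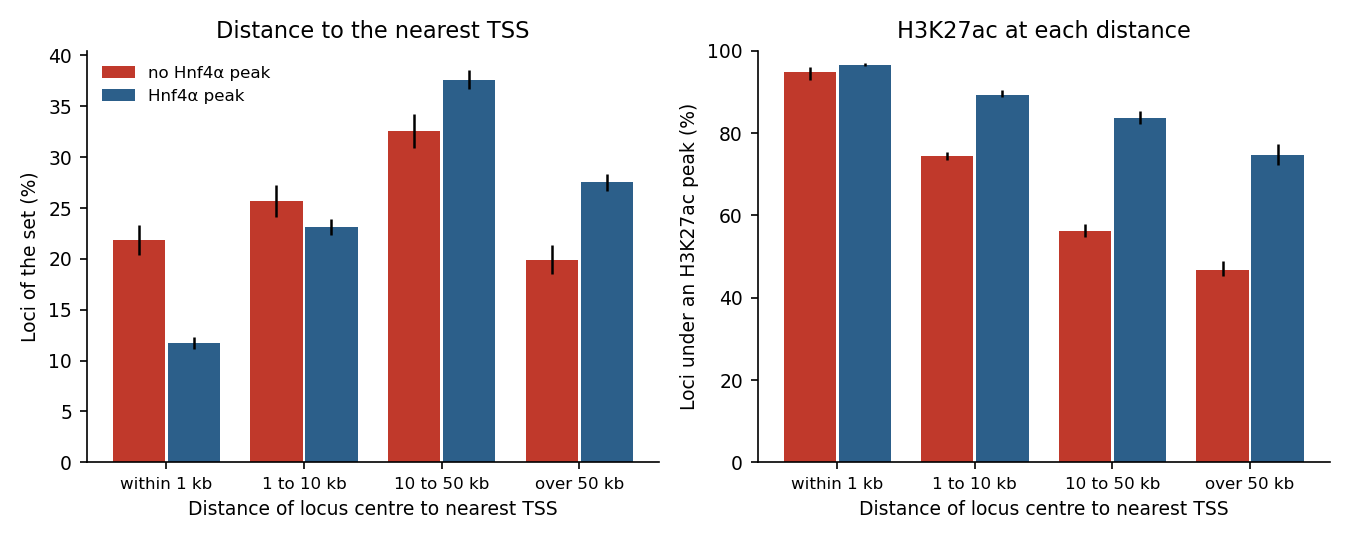
Left, percent of shared C/EBPα loci without (red) and with (blue) an Hnf4α peak in each class of distance to the nearest TSS, with 95% Wilson intervals; within 1 kb lay 21.8% and 11.7%. Right, percent of the loci of each class under an H3K27ac peak, as the mean of 6 libraries with the lowest and highest library; the sets were close within 1 kb, 94.8% and 96.5%, and apart beyond 50 kb, 46.8% and 74.6%.

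H3K27ac, which the rule did not use, was less frequent at the loci without Hnf4α. In the LD libraries 68.4%, 68.9% and 67.8% of them lay under an H3K27ac peak, and in the CD libraries 66.5%, 66.5% and 66.4%. At the co-bound loci the shares were 85.7%, 84.3% and 83.9% on LD and 83.5%, 82.6% and 83.6% on CD. No library brought the sets together, and the lowest co-bound share was above the highest share without Hnf4α. The mean difference was -16.5 percentage points ± 0.746 (SD, n = 6 libraries), with p = 0.03125 in an exact two-sided sign-flip permutation test, the smallest that 6 libraries can give. All 6 libraries score the same fixed sets of loci, so this p measures only whether the libraries share a direction. It does not measure spread over loci. With loci that had no Hnf4α peak within 1000 bp the mean difference was -30.47 points, and when Hnf4α peaks below the median score of their list were set aside -26.8 points. Between the diets the share without Hnf4α was 1.89 points higher on LD, with the 3 LD libraries above the 3 CD libraries and p = 0.1 in an exact two-sided permutation test, the smallest p of 3 against 3. The co-bound share was also higher on LD, by 1.41 points. The LD lists also held more H3K27ac peaks, 53821 to 56987 against 48156 to 51608 in the CD lists, and the part of this in the shares was not tested.

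Of the 3016 loci, 754 (25%, Wilson interval 23.5% to 26.6%) lay under no H3K27ac peak of any library, against 9.60% (9.06% to 10.2%) of the co-bound loci. In all 6 libraries 59.5% and 76.2% were covered. In all LD and no CD library 18 loci without Hnf4α (0.597%) and 86 co-bound loci (0.797%) were covered, and in all CD and no LD library 5 (0.166%) and 33 (0.306%).

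The difference in H3K27ac was present in each quartile of C/EBPα height and narrowed with height. From the lowest to the highest quartile 54.7%, 70.6%, 76.2% and 88.1% of the loci without Hnf4α were covered, against 73.2%, 81.3%, 86.1% and 91.97% of the co-bound loci. It was widest far from promoters. Within 1 kb of a TSS 94.8% of the loci without Hnf4α and 96.5% of the co-bound loci lay under an H3K27ac peak, at 1 to 10 kb 74.3% and 89.2%, at 10 to 50 kb 56.3% and 83.6%, and beyond 50 kb 46.8% and 74.6%. By the gap to the nearest Hnf4α peak, H3K27ac covered 93.8% of the 237 loci at 1 to 100 bp, 93.9% and 87.7% in the next classes up to 1 kb, 65.5% at 1 to 10 kb and 29.5% of the 616 loci beyond 10 kb. From the first to the last of these classes the median height went from 24.7 to 17.6 and the median TSS distance from 7.42 to 25.9 kb, and the part of height and position in the H3K27ac values was not tested. Among the co-bound loci, coverage rose with the number of Hnf4α lists that held a peak, from 70.2% for 1 list to 90.8% for all 4.

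**Figure D3:**
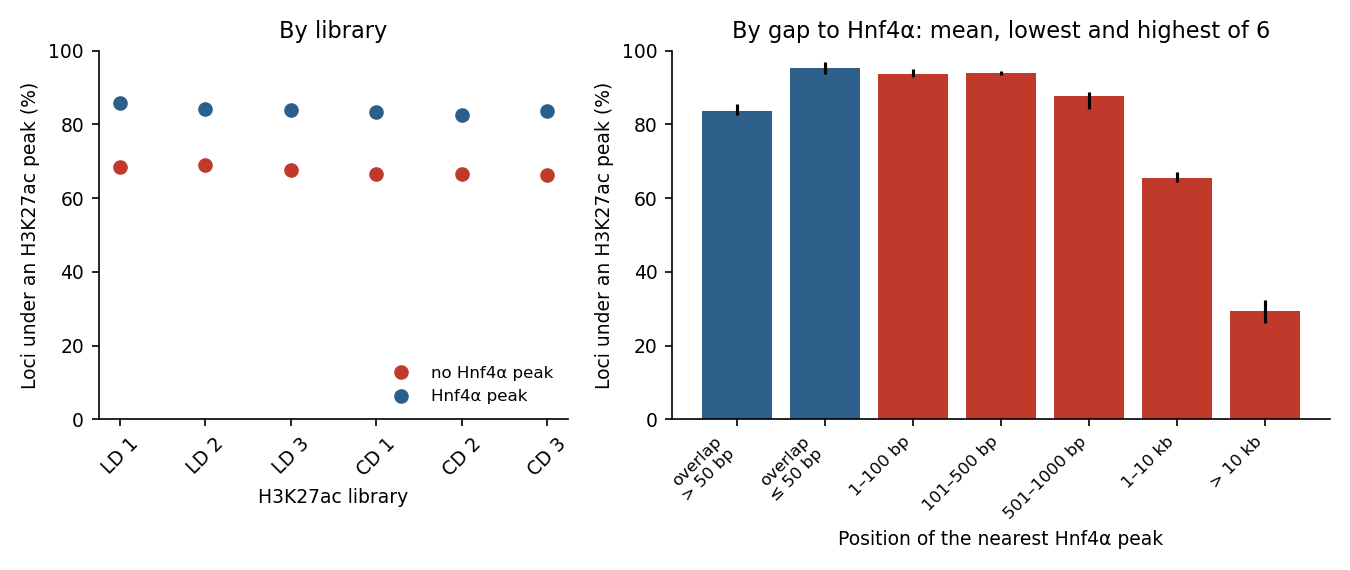
Left, percent of shared C/EBPα loci under an H3K27ac peak in each of the 6 H3K27ac libraries, without (red) and with (blue) an Hnf4α peak. Right, the same percent by position of the nearest Hnf4α peak, as the mean of the 6 libraries with the lowest and highest library; it was 93.8% at a gap of 1 to 100 bp and 29.5% beyond 10 kb.

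Loci without Hnf4α held C/EBP strings more often than co-bound loci and held few Hnf4α strings. A C/EBP string lay in the central 200 bp of 1596 of 3014 loci (53.0%, Wilson interval 51.2% to 54.7%), as in the sequences of Prmt3 and Wdr5 above, against 45.5% (44.6% to 46.5%) of the co-bound loci. In windows of the same length 1000 bp to either side it was present in 7.95% and 8.24%. The strict forms TTGCGCAA and TTGCACAA were in 21.5% of the loci without Hnf4α and 11.75% of the co-bound loci, against 0.581% and 0.598% of the windows beside them. The string CAAAGNNCA, part of the Hnf4α repeat, was in 3.98% of the loci without Hnf4α, below the 5.03% of the windows beside them, and in 14.4% of the co-bound loci. The longer Hnf4α string CAAAGTCCA was in 4 of 3014 loci (0.133%), against 2.51% of the co-bound loci. A match is a description of the letters and is no measured binding site.

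The share with a C/EBP string moved with height, position and H3K27ac. Without Hnf4α it was 50.4% in both lower quartiles of height, 55.2% in the next and 64.2% in the highest. At the co-bound loci it was 31.8%, 36.9%, 45.7% and 62.45% in the same quartiles. It was 36.5% within 1 kb of a TSS and 57.5% beyond, and the co-bound shares were 39.5% and 46.3%. At the loci without any H3K27ac peak it was 65.7%, against 48.7% of the others. With the gap to Hnf4α it rose from 42.2% at 1 to 100 bp to 63.6% beyond 10 kb.

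Strings of other factors differed in direction. The Fox string TGTTTAC was in 3.42%, against 5.72% of the co-bound loci and 2.79% of the windows beside the loci without Hnf4α. The Hnf6 string ATTGATT was in 2.75% and 4.54%, the AP-1 string TGANTCA in 6.20% and 7.99%, and the STAT string TTCNNNGAA in 5.41% and 6.68%. The promoter strings CCAATCA (NF-Y) and CCGGAAGT (ETS) were more frequent without Hnf4α, 4.38% against 3.355% and 1.43% against 0.667%. Within 1 kb of a TSS they were in 8.68% and 4.72% of the loci without Hnf4α and in 6.33% and 3.41% of the co-bound loci. The C/EBP-ATF composite TGATGCAAT, which overlaps the C/EBP string in part, was in 2.69% and 2.24%, and the CREB string TGACGTCA in 0.664% and 0.473%. The Hnf1, NFI, glucocorticoid receptor and GAGGAAGT (PU.1-type ETS) strings were each in at most 1.33% of the loci of either set.

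**Figure D4:**
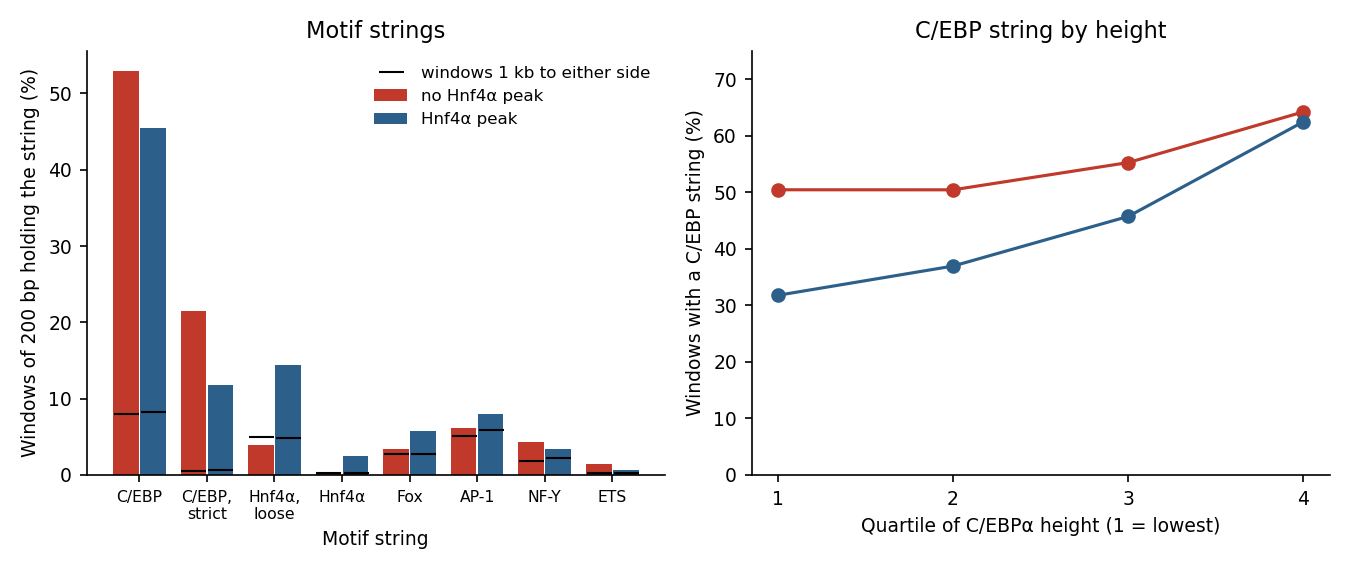
Left, percent of central 200 bp windows that hold each string, without (red) and with (blue) an Hnf4α peak; black marks give the percent in windows 1 kb to either side, and the C/EBP string was in 53.0% and 45.5%. Right, percent of windows with a C/EBP string by quartile of C/EBPα height, from 50.4% to 64.2% without Hnf4α.

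Loci without Hnf4α lay in promoter fragments with a listed interaction more often than co-bound loci. Outside such fragments their shares with a promoter contact were near those of the co-bound loci, taken over all such loci. In the LD list 24.97% of the loci without Hnf4α lay in such a promoter fragment and in the CD list 24.6%, against 15.8% and 15.5% of the co-bound loci. Captured promoters without a listed interaction count as outside these fragments. Of the 2263 loci outside such fragments on LD, 27.35% lay at the distal end of an interaction with a CHiCAGO score of at least 5, and of 2275 on CD 28.2%, against 26.6% and 29.1% of the co-bound loci. Among those without any H3K27ac peak the shares were 24.8% on LD and 24.5% on CD, against 17.8% and 16.9% of the co-bound loci. Among all 3016 loci, 527 lay at a distal end on both diets, 92 on LD alone and 114 on CD alone. These lists are pooled over replicates, so no spread or test can be given. Of the 619 loci at a distal end on LD and 641 on CD, 87 and 97 were in contact with the promoter of the gene with the nearest TSS. Both loci nearest to Wdr5 that were listed in an interaction contacted the promoter of Rxra, the retinoid X receptor α, on both diets, with scores of 7.93 and 7.32 for 1 and 7.54 and 9.30 for the other on LD and CD. The locus nearest to Gpnmb was in contact with the promoters of Igf2bp3 and Stk31. Of the 2 loci nearest to Apob, the apolipoprotein of very low density lipoprotein, 1 was listed at a distal end. It contacted the Apob promoter at scores of 13.1 on LD and 17.7 on CD.

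The loci without Hnf4α were nearest to 2603 genes, of which 2253 had 1 such locus, 298 had 2, 42 had 3, 9 had 4 and 1 had 5, and 1271 of the 2603 were also nearest to a co-bound locus. The median level of these genes lay between 7.09 and 8.40 TPM in the 5 LD mice and between 6.72 and 7.63 TPM in the 5 CD mice. The median of the 6307 genes nearest to co-bound loci was 5.72 to 6.66 TPM on LD and 5.36 to 6.16 TPM on CD, below the other in each mouse. When genes with a mean under 0.1 TPM were left out, the order of the mean medians turned, to 11.49 and 11.68 TPM. Of the 2603 genes, 72.8% were at 1 TPM or more and 17.4% under 0.1 TPM, against 68.4% and 21.2% of the co-bound genes. The 1332 genes with loci without Hnf4α alone had medians of 4.99 to 6.47 TPM, the 1271 with both kinds 8.36 to 10.1 TPM, and the 5036 with co-bound loci alone 4.61 to 5.81 TPM. For loci within 1 kb of a TSS the order was the other way, with a median of 11.7 TPM for genes nearest to loci without Hnf4α and 16.8 TPM for co-bound genes.

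Bcl6, a transcriptional repressor of lipid and immune genes, had the most loci without Hnf4α, 5, and Rxra, Pid1, Uvrag, Itpr1 and Pard3 were among the 9 genes with 4 each. At Bcl6 these loci lay between 14 and 95580 bp from the TSS, all 5 under H3K27ac peaks, and 7 co-bound loci were also nearest to it. The locus at the Bcl6 start site, chr16:23988511-23988829, was at 50 and 61 on LD and 81.5 and 76 on CD. Bcl6 RNA was at 7.69, 7.003, 4.02, 4.30 and 3.345 TPM in the LD mice and at 28.5, 30.02, 26.4, 5.70 and 3.13 TPM in the CD mice. Of the CD mice 3 were above all LD mice and 1 was below them all, and the log2 fold change of -1.90 (SE 0.66) had an adjusted p of 0.063 in edgeR's quasi-likelihood test. Rxra was at 103 TPM ± 4.89 (SD, n = 5) on LD and 111 ± 15.8 on CD (log2 fold change -0.18, SE 0.09, adjusted p = 0.15). Pid1, an adaptor protein that tempers insulin signalling, was at 40.7 to 57.6 TPM on LD and 50.3 to 70.4 TPM on CD. It was called higher on CD by the same test (log2 fold change -0.37, SE 0.10, adjusted p = 0.015).

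Cebpa itself, the gene of the factor studied, had 2 loci without Hnf4α and 1 co-bound locus nearest to it. The first, chr7:35903970-35904284, was centred 184 bp from the TSS with heights of 33.5 and 31.5 on LD and 44 and 54 on CD, and the other lay 8022 bp away. Cebpa RNA was at 235, 202, 237, 242 and 233 TPM on LD and at 251, 292, 249.5, 252 and 261 TPM on CD. The 5 CD mice were above the 5 LD mice, with a log2 fold change of -0.26 (SE 0.08, adjusted p = 0.020), which is under the fold change threshold of 1.2. Cebpz, a nucleolar protein gene of the same name series, had a locus 28 bp from its TSS and was at 21.3 TPM ± 2.28 (SD, n = 5) on LD and 24.6 ± 1.11 on CD, and it was called higher on CD (log2 fold change -0.29, SE 0.07, adjusted p = 0.0054).

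The diets were then compared at the nearest genes. A gene was called when its adjusted p was under 0.05 and its fold change above 1.2 in edgeR's quasi-likelihood test over all 13494 tested genes, of which 24.9% were called, 13.8% towards LD and 11.1% towards CD. Of the 2603 genes nearest to loci without Hnf4α, 2060 were tested and 621 called (30.15%), 257 of them with more RNA on LD (12.5%) and 364 with more on CD (17.7%). DESeq2 called 281 towards LD and 391 towards CD. With limma on log2(TPM + 1), which changes the input and scaling as well as the test, the balance turned, to 324 towards LD and 184 towards CD. The co-bound genes were called at 29.8%, 13.8% towards LD and 15.98% towards CD. By kind of locus, the genes with both kinds were called towards LD in 11.9% and towards CD in 23.8%, those with loci without Hnf4α alone in 13.1% and 11.4%, and those with co-bound loci alone in 14.4% and 13.75%. The LD shares were near the background in each set, and the CD share of genes with loci without Hnf4α alone was near it too.

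Of 326 called genes within 50 kb of a locus without Hnf4α, at 1 TPM or more on a diet and with the 5 mice of 1 diet above the 5 of the other (18.5% of all tested genes were separated in this way), 140 were higher on LD and 186 on CD. The full rule was not counted over all tested genes, so this split is no result about these loci. The largest change among the 326 was in Gpnmb, a transmembrane glycoprotein of lipid-associated macrophages, at 1.63, 2.94, 5.23, 4.885 and 9.50 TPM on LD and 0.142, 0.152, 0.241, 0.184 and 0.248 TPM on CD. Its log2 fold change was 4.53 (SE 0.47, adjusted p = 0.000107). Its locus, chr6:48997006-48997320, lay 10.6 kb from the TSS with the nearest Hnf4α peak 26481 bp away and no H3K27ac peak.

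The acute phase gene Saa1, whose locus lay 184 bp from its TSS, was at 359, 285, 278, 276 and 290.5 TPM on LD and at 36.1, 39.9, 56.1, 22.9 and 39.15 TPM on CD, a log2 fold change of 2.86 (SE 0.19). Orm2, an acute phase lipocalin, was at 59.9, 59.5, 123, 121 and 129 TPM on LD and at 12.8, 9.43, 16.3, 7.67 and 11.7 TPM on CD, a log2 fold change of 2.999 (SE 0.30). Both genes have near-identical copies beside them, and counts may be split between copies. Ifi27l2b, of an interferon-inducible family, changed by 2.98 (SE 0.32), Cdkn3, a phosphatase of the cell cycle, by 2.87 (SE 0.41), and the histone gene Hist1h3g by 2.63 (SE 0.32) on the log2 scale.

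Egfr, the receptor of epidermal growth factor, changed most towards CD, at 64.6, 83.4, 45.98, 20.1 and 27.85 TPM on LD and 238, 316, 257, 266 and 174 TPM on CD. Its log2 fold change was -2.44 (SE 0.39, adjusted p = 0.0020), and 2 loci without Hnf4α and 3 co-bound loci were nearest to it. Hamp, which encodes hepcidin, the hormone that limits iron uptake, was at 300, 690, 156, 344 and 157 TPM on LD and at 1020, 950, 1416, 1511 and 1344 TPM on CD (log2 fold change -1.98, SE 0.44, adjusted p = 0.010). Its only shared C/EBPα locus, chr7:31734935-31735249, lay 6.045 kb from the TSS and 3990 bp from the nearest Hnf4α peak and was under H3K27ac peaks in all 6 libraries. Cadm4, a cell adhesion gene, changed by -2.05 (SE 0.23), the carboxylesterase gene Ces3b by -1.73 (SE 0.26), B930025P03Rik by -1.69 (SE 0.32) and Snora3, a small nucleolar RNA inside the ribosomal protein gene Rpl27a, by -1.59 (SE 0.25). Reads of Snora3 and of its host cannot be told apart where they overlap on the same strand.

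**Figure D5:**
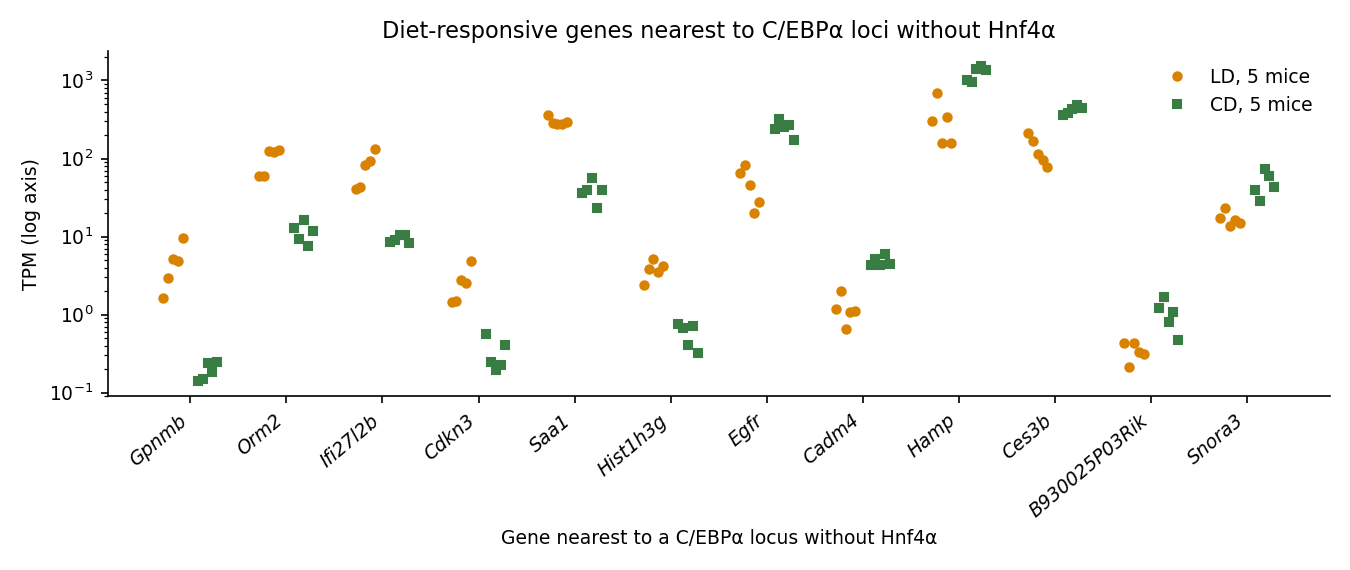
TPM (log axis) in the 5 LD mice (circles) and 5 CD mice (squares) for the 12 genes with the largest diet differences among those with a C/EBPα locus without Hnf4α within 50 kb. The groups do not overlap in any of the 12, which the rule required, and Gpnmb had the largest change, 4.53 on the log2 scale.

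Genes of the fixed functional lists were examined next, as the genes with at least 1 locus without Hnf4α. In fatty acid oxidation 6 of 18 genes had such a locus, and 5 of these 6 were called higher on LD and none higher on CD, with a median log2 fold change of 0.80. Over the whole list 10 of 18 were higher on LD with a median of 0.38, against -0.0019 over all genes tested. Cpt1a, the carnitine palmitoyltransferase that admits fatty acids to mitochondria, with 2 loci, was at 313, 269.5, 337, 355 and 308 TPM on LD and 167, 180, 207, 234 and 211 TPM on CD (log2 fold change 0.59, SE 0.10, adjusted p = 0.0010). Acadm, medium-chain acyl-CoA dehydrogenase, rose on LD by 0.62 (SE 0.08) and Acaa1b, a peroxisomal thiolase, by 0.97 (SE 0.17). Acot1 was at 19.0 TPM ± 4.53 (SD, n = 5) on LD and 15.8 ± 6.02 on CD and was not called.

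In de novo lipogenesis 4 of 11 genes had a locus without Hnf4α, and 3 of the 4 were called higher on CD, as were 7 of all 11. Acaca, acetyl-CoA carboxylase, with 2 loci, was at 47.3, 39.2, 50.4, 50.3 and 61.0 TPM on LD and 105, 105, 78.2, 86.1 and 88.3 TPM on CD (log2 fold change -0.98, SE 0.11, adjusted p = 6.4e-05). Scd1, stearoyl-CoA desaturase, changed by -0.96 (SE 0.17) and Elovl6, a fatty acid elongase, by -0.85 (SE 0.12). Elovl5 was not called. In gluconeogenesis and glycogen 4 of 9 genes had a locus, 2 of the 4 were called higher on CD, and over all 9 the calls were 1 on LD and 3 on CD. G6pc, glucose-6-phosphatase, with 3 loci, was at 242, 156, 210, 192 and 261 TPM on LD and at 426, 516, 711, 350 and 295 TPM on CD (log2 fold change -1.20, SE 0.22, adjusted p = 0.0024). Ppargc1a, a coactivator of gluconeogenic genes, changed by -0.73 (SE 0.12). Fbp1, with 2 loci, was at 2062 TPM ± 88.0 (SD, n = 5) on LD and 1931 ± 89.3 on CD and was not called, nor was Pcx.

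In the urea cycle and amino acid catabolism 5 of 12 genes had a locus and 3 of the 5 were called higher on CD, among them Ass1 by -0.54 (SE 0.13) and Hal by -0.71 (SE 0.12), and 7 of all 12 were called higher on CD. Among 20 acute phase genes 6 had a locus, of which 3 were called higher on LD and 2 higher on CD, against 11 and 4 over all 20. Fgg, the fibrinogen γ chain, with 2 loci, was at 2006 to 2135 TPM on LD and at 2765 to 3472 TPM on CD (log2 fold change -0.71, SE 0.08). Among 15 secreted hepatocyte proteins 3 had a locus, Apob, Alb and Apoh, and none of the 3 was called, against 3 called higher on CD over all 15. Among 14 lipid droplet genes 3 had a locus, G0s2, Plin3 and Pnpla2, and none of these was called, while 8 of all 14 genes were called towards LD and 1 towards CD. Among bile acid and cholesterol genes 9 of 18 had a locus, with 1 called on LD, Cyp8b1 of bile acid synthesis (0.40, SE 0.13), and 1 on CD, against 3 and 4 of the 17 tested.

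Of 17 liver transcription factors 8 had a locus and 5 of these were called higher on CD, against 7 on CD and 1 on LD over all 17, among them Nr3c1, the glucocorticoid receptor (-0.29, SE 0.09), and Nr5a2 (-0.31, SE 0.06). The Nr3c1 and Nr5a2 loci were in contact with those genes' own promoters on both diets, with scores of 7.17 on LD and 7.25 on CD at Nr3c1. Of 16 stress and AP-1 factors 7 had a locus, with Bcl6, Socs3 and Fosl2 holding most, and only Atf4, a factor of the integrated stress response, was called, higher on CD (-0.37, SE 0.07), against 4 on LD and 1 on CD of the 15 tested. Of the 7 genes on the C/EBP list 2 had a locus, Cebpa and the nucleolar protein gene Cebpz, described above.

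Few markers of other liver cells had such loci, as few of all genes did (2603 of 25494). None of 12 neutrophil and granulocyte markers, 9 lymphocyte markers or 6 cholangiocyte markers had a locus without Hnf4α, and 2 of 18 macrophage, 2 of 10 adipocyte, 1 of 10 stellate cell and 1 of 9 endothelial markers did. The macrophage markers were Spi1, the factor PU.1, with a log2 fold change of 0.72 (SE 0.225), and Gpnmb, and the stellate cell marker was Col1a1 (1.60, SE 0.23). Several of the whole lists moved with diet beside them. Of the 5 neutrophil and granulocyte markers tested 2 were called higher on LD, and the summed level of that list was 71.2 to 371 TPM on LD and 7.97 to 13.1 TPM on CD. That list holds Lcn2, which is also in the acute phase list, and the part of Lcn2 in the sum was not tested. Of 18 macrophage and Kupffer markers 8 were called higher on LD and none higher on CD, with summed levels of 669 to 1493 TPM on LD and 421.5 to 781 TPM on CD. Of 10 stellate cell markers 4 were called higher on LD, with sums of 362 to 588 and 310.3 to 353 TPM. All 6 adipocyte markers tested were called higher on LD, while the defining Adipoq, Lep, Retn and Plin1 had means under 0.1 TPM. The lymphocyte list summed to 14.3 to 30.1 TPM on LD and 11.3 to 14.1 TPM on CD, and the cholangiocyte list to 51.4 to 148.7 and 19.5 to 34.9 TPM. The endothelial list summed to 252.1 to 341.3 TPM on LD and 265.2 to 306.7 TPM on CD, with 1 of 9 called higher on LD. The part of these cells in the levels of Gpnmb, Spi1 and Col1a1 was not tested, and in whole liver more cells of a type cannot be told apart from more RNA per cell.

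Last, C/EBPα tag counts were compared between the diets at all 13813 shared loci with edgeR's quasi-likelihood test (adjusted p under 0.05 and fold change above 1.5), which called 16.7% of them, 10.8% towards LD and 5.87% towards CD. Among the 3016 loci without Hnf4α, 386 were called (12.8%), 233 with more tags on LD (7.725%) and 153 with more on CD (5.07%), and at the co-bound loci 17.8% were called. Median tag counts were lower without Hnf4α, 36 and 39 on LD and 57 and 40 on CD. At the co-bound loci they were 52 and 56 on LD and 81 and 53 on CD, and the part of this in the shares called was not tested. With any 1 of the 4 libraries left out, 119 to 179 loci without Hnf4α were called towards LD and 60 to 117 towards CD. DESeq2 called 70 and 31, and limma on heights 10 and 64. Both libraries of 1 diet were above both of the other at 53.4% of the loci without Hnf4α and at 57.8% of all shared loci. These calls depend on the scaling. TMM centred the fold changes over all shared loci near 0, whereas with the equal library totals the median log2 fold change over all shared loci was -0.43 and the calls without Hnf4α became 4 towards LD and 46 towards CD. Changes are therefore relative to the other shared loci. The rule required a peak in all libraries, which leaves out loci bound on 1 diet, and the part of the peak widths that went with diet was not tested.

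The loci called higher on CD lay nearer to promoters, with 35.95% within 1 kb of a TSS and 88.2% under an H3K27ac peak of any library, than those called higher on LD, with 6.87% and 62.2%. Of 136 tested genes nearest to loci called higher on CD, 32 (23.5%) were called higher on CD in RNA and 13 (9.56%) higher on LD. Of 172 nearest to loci called higher on LD, 31 (18.02%) were called higher on LD and 30 (17.4%) higher on CD. At the 2630 loci not called, 22.3% lay within 1 kb of a TSS and 75.4% under an H3K27ac peak, and 17.4% of their tested genes were called towards CD and 12.2% towards LD, against 11.1% and 13.8% of all tested genes.

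Folds in the following sentences are on the TMM scale, whereas heights are on HOMER's scale of equal library totals. The largest changes towards CD were at the locus 7.05 kb from Cadm4, chr7:25259812-25260142, with heights of 12 and 18.5 on LD and 92 and 74 on CD (4.12-fold), and at the locus 7284 bp from Serpina3k, a secreted serpin, with 7 and 14 on LD and 58 and 27 on CD (2.96-fold). Both genes were also called higher on CD in RNA, Serpina3k by -1.19 on the log2 scale, with close copies beside it. Loci near Mir1191b, Hmbox1 and Tprkb followed with 2.89-, 2.73- and 2.67-fold. In RNA Tprkb was called higher on CD, Hmbox1 was not called and Mir1191b was not tested. The largest changes towards LD were at loci near Zfp619 (29.5 and 28.5 on LD, 9.5 and 9 on CD, 4.13-fold), Rtn4 (23 and 39.5 on LD, 11.5 and 8.5 on CD, 4.12-fold), Cyyr1 (4.04-fold), Fpr2 (3.58-fold) and Gjd4 (3.48-fold). On equal library totals the log2 fold change was -2.44 at Cadm4, 1.64 at Zfp619 and 1.64 at Rtn4, and the call at Fpr2 was lost (adjusted p = 0.058 in edgeR). DESeq2 gave no adjusted p at Gjd4. Rtn4, a membrane-shaping protein of the endoplasmic reticulum, was called higher on LD in RNA (0.92 on the log2 scale), Zfp619 was called higher on CD, Cyyr1 and Fpr2 were not called and Gjd4 was not tested.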

How the data were processed

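Livers of 46 samples were labelled by diet and assay. Read pairs had been aligned to mm9 by the authors (Bowtie 0.12.8 and STAR 2.5 are among the tools in the submitters' processing notes) and unique, deduplicated ChIP reads had been used to call peaks in each sample against its own input. The deposited C/EBPα and Hnf4α lists from HOMER give the tag count, the height as a normalised tag count and a peak score per peak, and the deposited H3K27ac lists from SICER give intervals only. The deposited RNA-seq counts are read pairs counted by strand per RefSeq gene with featureCounts 1.5.0-p1, and TPM values per gene were calculated by the authors from them. The interaction lists hold CHiCAGO scores of 5 or more within 1 Mb, which the authors computed on replicates pooled by diet. The columns of the authors' own diet comparison (status, fold change and FDR) were not used, nor were domain calls.

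From these files peaks were merged and overlapped (1 bp or more) in Python 3.11.15. RNA and C/EBPα tag counts were tested with edgeR 4.0.16 (quasi-likelihood, TMM scaling, Benjamini-Hochberg adjustment over all genes or loci tested), with DESeq2 1.42.0 and limma 3.58.1 on log2(TPM + 1) or log2 height as alternatives, and the scripts were tested on simulated data. Fold changes are LD over CD. Sequence and GENCODE annotation came from the mouse assembly NCBIM37, which is mm9. At 15556 of 15556 bait fragments it showed the HindIII string at both ends. Strings were searched in the central 200 bp. Depth was 31707963 to 39012699 counts per RNA library, and intervals cover counting error only. Replicates were separate animals.

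Named were the 10 highest loci, the 6 genes with the largest changes per direction among called, separated genes at 1 TPM or more within 50 kb, the 6 genes with most loci, up to 4 genes per list in 18 lists by number of loci, and the 5 loci with the largest C/EBPα changes per direction. Other genes were chosen after their values were seen. The loci, lists and rules were chosen with earlier results of these data known. Some genes and sequences that these rules name are not reported here.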

Additional observations from a re-analysis of the deposited data

Results flagged for a closer look

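Of 122 groups of 5 mice examined, 8 (6.56%) held a mouse whose gap to the nearest other, divided by the range of the group, was above Dixon's critical value of 0.710, where chance gives about 1 in 20. On LD, Saa1 was at 359 TPM in 1 mouse and at 276 to 290.5 in the others. Spi1 was at 16.29 TPM in 1 LD mouse and at 7.39 to 9.25 in the others. Pard3 was at 13.67 TPM in 1 LD mouse, against 15.45 to 15.99, and Atf4 at 90.61 TPM, against 101.5 to 104.9. Cebpa was at 202.2 TPM in 1 LD mouse, against 232.9 to 242.4, and at 292.2 TPM in 1 CD mouse, against 249.5 to 261.1. The median TPM of genes nearest to co-bound loci was 5.364 in 1 CD mouse and 5.967 to 6.163 in the others. Retn was at 0.04062 TPM in 1 CD mouse and listed at 0 in the others.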

How the results depend on the processing

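No single value changed sign in the alternatives run, but the order of the TPM medians and the balance of calls between the diets turned in some, as given below. Of 156 alternatives to the 15 results that answer a comparison, 114 kept direction and call or size, 6 lost the call and 36 moved the value. Of 272 for single genes and loci, 270 kept both. The exceptions were C/EBPα at Fpr2 without TMM (adjusted p = 0.05812 in edgeR) and at Gjd4 in DESeq2, which gave no adjusted p. Restricting the loci to autosomes and chromosome X was chosen after seeing the data.

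Asking for no Hnf4α peak within 500 bp gave a median TSS distance of 13.3 kb and an H3K27ac difference of -25.28 points, and within 1000 bp 1955 loci (14.15%), 15.31 kb and -30.47 points. C/EBPα peaks at or above the median score gave a height ratio of 0.7626 and 9.7 kb, and such Hnf4α peaks 5829 loci (42.2%), 0.6622, 16.06 kb and -26.8 points. With 1 C/EBPα or Hnf4α library left out, by which the rule itself changes, the number was 3151 to 4232, the percent 22.81 to 25.61, the height ratio 0.6803 to 0.7166, the TSS distance 11.09 to 13.25 kb and the H3K27ac difference -18.21 to -15.25 points. Leaving out 1 H3K27ac library kept the rule and gave -16.75 to -16.37 points. The exact sign-flip test then gave p = 0.0625, the smallest that 5 libraries can give. The diet difference in H3K27ac was 1.625 to 2.188 points.

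C/EBPα calls towards LD and CD were 4 and 46 without TMM, 70 and 31 with DESeq2, 10 and 64 with limma on heights, which turned the balance of 233 and 153 except in DESeq2, and 119 to 179 and 60 to 117 with 1 library left out, lowest without the second CD library. RNA calls towards LD and CD were 257 and 364 with edgeR, 281 and 391 with DESeq2, and 216 to 262 and 299 to 391 with 1 mouse left out. Limma on TPM gave 324 and 184, the opposite balance. The cause was not tested. Same-numbered samples did not deviate together (residual correlations -0.078 to 0.191 in RNA, with 1 of 5 closest to its own number, and -0.048 in C/EBPα). With the replicate block the calls towards LD and CD were 250 and 332 in RNA and 226 and 146 in C/EBPα. Median TPM without and with Hnf4α was 8.818 and 7.973 within 50 kb of a TSS, 11.49 and 11.68 above 0.1 TPM, and 5.771 and 5.15 for genes of 1 kind alone. The C/EBP string was in 49.6% of central 100 bp windows and in 21.53% by its strict forms. At a CHiCAGO score of 10, 6.532% and 7.394% of the loci were in contact on LD and CD.

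Peak lists hold no values below the callers' thresholds, so the absence of an Hnf4α peak does not show that Hnf4α was absent. With 2 libraries per diet the C/EBPα spread rests on few samples.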
